A study of Mus musculus with 69 samples.

Results

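The annexins examined here were the products of Anxa1, Anxa2, Anxa3, Anxa4, Anxa5, Anxa6, Anxa7, Anxa8 and Anxa11. These 9 genes were taken from the count tables by their Ensembl identifiers, out of 12 annexin genes and of 56953 genes in all. The family was selected on a measured value, the difference of Anxa8 between WT VSMC and KO VSMC in the response to ALL stressors. In edgeR with all sets, Anxa8 was 1 of 2 genes (with Aldh3a1) called for this difference. Without WT VSMC set 1, 2 or 4 or KO VSMC set 7, edgeR called 0 genes. DESeq2 called 215 of 35709 genes with all sets. Because of this choice, the values of Anxa8 under ALL stressors are a description without a test. Its tests of HG + FFA and AII + NA share the Control libraries with that value and take their estimate of the spread from fits that include the ALL libraries. Its tests under Control, of KO VSMC or EC against WT VSMC, also use Control libraries that enter that value. All 9 genes passed the filter on low counts in every comparison.

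Annexins are cytosolic proteins that bind acidic phospholipids of membranes when Ca2+ rises. They are known for sealing membrane wounds, for trafficking of endosomes and for organizing the cell cortex, and in the vessel wall also for plasminogen activation and for limiting coagulation and inflammation at exposed phosphatidylserine. Anxa1 is a ligand of formyl peptide receptors that limits leukocyte recruitment, and Anxa2 forms a complex with S100a10 that binds plasminogen. Anxa5 covers phosphatidylserine, Anxa6 is the large member with a duplicated core, Anxa7 and Anxa11 carry long N-terminal tails, and Anxa11 binds Pdcd6. Anxa3 has been linked to endothelial migration, Anxa4 to secretion, and Anxa8 to late endosomes and the supply of Cd63 to the endothelial surface.

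RNA-Seq counts came from cultured primary cells of male C57BL/6 mice. WT VSMC (sets 1 to 4, 16 libraries) and KO VSMC (sets 5 to 8, 15 libraries) were smooth muscle cells of the aorta, where KO VSMC carried floxed Egfr and a Cre driven by the SM22 promoter, which is active in smooth muscle. EC (sets 9 to 18, 38 libraries) were cells of the heart, labelled WT, that had been enriched on beads by the lack of CD45 and the presence of CD31. By their labels, EC sets 15 and 16 come from the animals of KO VSMC sets 7 and 6, and their Egfr set means were 9.31 and 2.61 FPM, against 12.6 to 154 FPM in the other 8 EC sets. A set was 1 animal and passage, split over the treatments. The treatments of 24 h were Control, HG + FFA (20 mM glucose with free fatty acids, 100 µM by the labels, where the study's methods give 100 µM each of oleate and palmitate), AII + NA (30 nM angiotensin II with 300 nM of a catecholamine, named epinephrine in the labels and norepinephrine in the study's methods) and ALL with both pairs together. Each treatment had n = 4 libraries in VSMC, except ALL in KO VSMC with n = 3, where the library of set 5 was not analysed here. In EC, Control and AII + NA had n = 9 and the other treatments n = 10. Cells of both VSMC genotypes belonged to labelled batch B1 and all EC to B2, so that cell type and batch cannot be told apart.

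Libraries held 17166133 to 43240489 counts. Expression is given as FPM, counts scaled to 1000000 per library after TMM normalization over all 69 libraries. Egfr RNA, the check of the knockout, ranged over sets from 246 to 430 FPM in WT VSMC and from 0.96 to 1.84 FPM in KO VSMC sets 6 to 8, whereas KO VSMC set 5 kept 36.5 FPM. Some EC went against their label. In EC sets 9, 11 and 13, Pecam1 (CD31) had set means of only 18.1 to 42.4 FPM, against 260 to 1594 FPM in the other 7 sets, and the sum of 5 fibroblast markers had set means of 3614, 8886 and 9991 FPM, against 609 to 4330 FPM in the others. The member calls in EC against Control are therefore given with and without these 3 sets. So are Anxa3 and Anxa8 between EC and WT VSMC under Control. Other tests in EC, those of partners included, are given only with these 3 sets. In WT VSMC the smooth muscle markers were modest, with set means of 773 to 1304 FPM for the sum of 8 genes and Myh11 set means of 3.92 to 10.8 FPM, and the 5 fibroblast markers summed to 3922 to 11331 FPM. Myh11 reached 239 FPM in KO VSMC set 5. The 6 leukocyte markers summed to 4.05 to 222 FPM over all libraries. In bulk RNA, fewer cells of a type and less RNA per cell cannot be told apart.

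Of the members, Anxa8 (ENSMUSG00000021950) lies on the plus strand of chromosome 14, at 33807936 to 33822528 of GRCm39, and Anxa7 and Anxa11 are on the same chromosome. Anxa1 is on chromosome 19, Anxa2 on chromosome 9, Anxa3 on chromosome 5, Anxa4 on chromosome 6, Anxa5 on chromosome 3 and Anxa6 on chromosome 11. Exons of Anxa8, Anxa1 and Anxa7 overlapped no other gene. For Anxa4, 12.2% of the exonic bases were shared with another annotated gene, for Anxa11 9.2% (antisense genes included) and for Anxa5 6.5%. Reads of such stretches are uncertain, because the strand setting of the counting is not given. The promoters of Anxa8, Anxa2 and Anxa3 are shown because these are members whose RNA changed under HG + FFA. Each is the 250 bases before the start site of the canonical Ensembl transcript, read 5′ to 3′ on the gene's strand from the GRCm39 genome, with capitals for the letters of a searched motif.
Anxa8, chr14:33807686-33807935, plus strand: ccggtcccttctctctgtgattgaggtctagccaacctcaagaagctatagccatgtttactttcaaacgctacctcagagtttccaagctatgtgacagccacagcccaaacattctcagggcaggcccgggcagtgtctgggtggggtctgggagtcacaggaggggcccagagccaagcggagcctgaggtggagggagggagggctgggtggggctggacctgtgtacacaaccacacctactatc
Anxa2, chr9:69360652-69360901, plus strand: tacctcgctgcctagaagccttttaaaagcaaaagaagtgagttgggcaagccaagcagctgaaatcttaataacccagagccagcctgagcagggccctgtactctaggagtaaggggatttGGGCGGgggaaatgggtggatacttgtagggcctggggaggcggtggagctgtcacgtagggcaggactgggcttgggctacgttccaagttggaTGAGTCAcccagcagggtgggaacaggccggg
Anxa3, chr5:96940933-96941182, plus strand: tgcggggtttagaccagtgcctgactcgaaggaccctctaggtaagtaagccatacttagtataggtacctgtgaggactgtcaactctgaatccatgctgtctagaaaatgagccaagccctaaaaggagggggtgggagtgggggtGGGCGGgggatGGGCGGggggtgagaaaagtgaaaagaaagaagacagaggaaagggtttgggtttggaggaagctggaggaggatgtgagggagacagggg

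Motifs were searched on both strands. The letters TGANTCA, bound by AP-1, occurred in the Anxa2 window, with the first base at position -32 from the start site, and in no other member, against 6.18% of 21757 promoters of protein-coding genes. GGGCGG, a motif of Sp1, occurred in 5 members (Anxa2, Anxa3, Anxa6, Anxa7 and Anxa11), against 36.3% of all promoters. AGGTCA, a motif of nuclear receptors, was found in Anxa6 alone (13.1% of all promoters). The letters GGAATG (TEAD, 12.1%), TATAAA (11.9%) and the CArG box of serum response factor (1.4%) were found in no member. The window of Anxa8, with a GC content of 58.0%, held none of these letters. A match is a string of letters and not a shown binding site.

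Per length of the union of a gene's exons, Anxa1 had the highest mean RNA level in all 3 kinds of cells and Anxa11 the lowest. Anxa1 was above Anxa2 in only 8 of 10 EC sets, however. The union holds the exons of all annotated transcripts and was 1882 bases for Anxa8 but 7774 for Anxa11, so that the ranks depend on it. In FPM, Anxa8 was the lowest member in WT VSMC, with a mean over sets of 26.4 FPM. There Anxa11 had 83.7 FPM and Anxa4 94.2 FPM. Mean FPKM over the sets of WT VSMC was 351 ± 123 for Anxa1 and 124 ± 18.6 for Anxa2 (SD, n = 4 sets). Anxa5 followed with 65.1 ± 5.88, Anxa6 with 46.2 ± 3.56 and Anxa7 with 40.4 ± 1.98. At the lower end were Anxa3 with 24.0 ± 8.99, Anxa4 with 15.2 ± 1.88, Anxa8 with 14 ± 9.25 and Anxa11 with 10.8 ± 0.69. Down to Anxa4, each gene was above the next in 4 of 4 sets. Anxa4 was above Anxa8 in 3 sets and Anxa8 above Anxa11 in 2, so that the order of these 3 did not hold in every set.

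In KO VSMC the order was the same from Anxa1 to Anxa7, but Anxa8 ranked sixth with 43.8 ± 19.3 FPKM (SD, n = 4 sets). It was above Anxa3 (41.2 ± 20.1) in 2 of 4 sets and below Anxa7 (44.6 ± 7.64) in 2 of 4, and these 3 genes did not differ beyond their spread. In EC, Anxa8 ranked seventh with 20.6 ± 18.2 FPKM (n = 10 sets). There Anxa5 (48.9 ± 7.89), Anxa6 (46.2 ± 11.1), Anxa3 (43.01 ± 16.7) and Anxa7 (38.9 ± 6.26) overlapped, since none of the first 3 was above the next in more than 7 of 10 sets. Together the 9 members made up 0.22% to 0.40% of the FPM of a WT VSMC library, 0.29% to 0.57% in KO VSMC and 0.25% to 0.42% in EC.

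**Figure D1:**
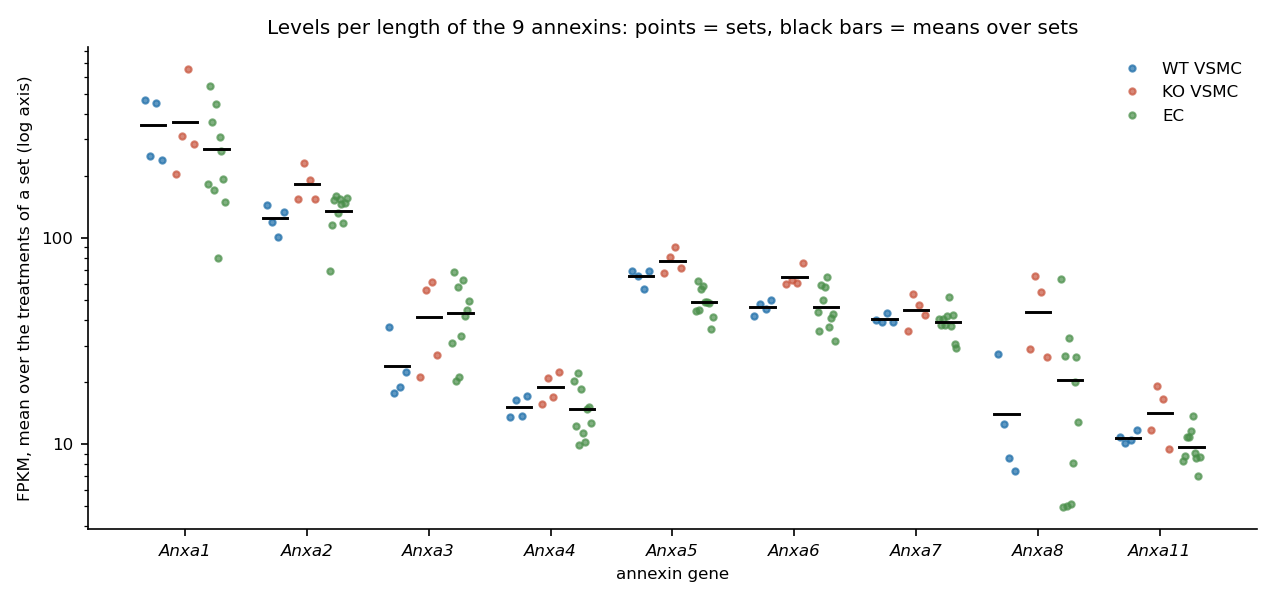
RNA levels per length of the exon union (FPKM, log axis) of the 9 annexins. Points are sets (mean over the treatments of a set) and black bars the means over sets of WT VSMC, KO VSMC and EC. Anxa1 is the highest in each kind of cell, and the points of Anxa8 are widely spread, from 7.39 to 27.5 FPKM in WT VSMC and from 4.96 to 63.3 FPKM in EC.

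The members differed in how much they varied between animals. Under Control in WT VSMC, the SD of log2 FPM between sets was 0.85 for Anxa8, which exceeded that of 94.9% of the 12045 genes with at least 3 FPM. Anxa1 followed with 0.71 (92.8% of genes) and Anxa3 with 0.43 (81.3%). Anxa7 (0.06), Anxa11 (0.08) and Anxa6 (0.09) were among the steadiest genes, with 2.24% to 6.78% of genes below them. In EC the spread of Anxa8 was 1.27 (n = 9), above 90.0% of 12258 genes. Counts behind Anxa8 ranged from 212 to 2195 per library in WT VSMC, from 1183 to 4416 in KO VSMC and from 159 to 3282 in EC, so that counting error was small beside these differences.

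Anxa8 was reduced in WT VSMC by HG + FFA. Under Control it had 65.9, 32.3, 20.1 and 17.9 FPM in sets 1 to 4. Under HG + FFA it had 43.4, 20.1, 13.7 and 12.2 FPM in the same order. The groups overlap, but each of the 4 sets was lower than its own Control, with ratios of 0.62 to 0.69. The log2FC was -0.60 ± 0.07 (SE) with an edgeR FDR of 6.34e-04. This FDR is not independent of the choice of the gene and cannot be taken at face value. The same Control libraries enter the difference by which Anxa8 was chosen, and the ALL libraries enter the estimate of the spread. In this comparison 0.538% of 16905 genes were called at an FDR under 0.05, and Anxa8 was the only 1 of the 9 members among them. It did not reach the study's own size limit for a regulated gene, a log2FC of 0.64. The call depended on the pairing, as without the set as a block the log2FC was -0.61 and the edgeR FDR 0.9999.

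With AII + NA, Anxa8 in WT VSMC had 60.1, 26.9, 19.2 and 15.7 FPM, a log2FC of -0.16 ± 0.07 that did not pass (edgeR FDR = 0.458), although all 4 sets were below their Control. The lowest values were those of ALL stressors, with 37.4, 15.5, 11.5 and 9.86 FPM in sets 1 to 4. These are 0.57, 0.48, 0.58 and 0.55 of the Control of the same set, a log2FC of -0.88 ± 0.07, which is given without a test. The spread of the ratio between sets was small (SD 0.12 on the log2 scale, n = 4), although the Control levels ranged from 17.9 to 65.9 FPM. Added up, the log2 ratios of HG + FFA and AII + NA left -0.08 to -0.18 per set to the ratio of ALL, a departure from additivity of -0.13 ± 0.09.

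In KO VSMC, Anxa8 passed no test against Control. Control values were 56, 127, 107 and 62.9 FPM in sets 5 to 8, HG + FFA gave 46.3, 124, 96.0 and 44.6 FPM, and AII + NA 60.4, 124, 97.9 and 46.1 FPM. Sets 6 and 7 were high and sets 5 and 8 low in each of these treatments. The log2FC was -0.24 ± 0.10 for HG + FFA (edgeR FDR = 0.353) and -0.12 ± 0.10 for AII + NA (edgeR FDR = 0.616). Under ALL, sets 6 to 8 had 118, 108.5 and 45.9 FPM, which are 0.93, 1.01 and 0.73 of their Control, a log2FC of -0.16 ± 0.11 with set 5 missing. The difference between the genotypes by which the gene was chosen, WT VSMC minus KO VSMC under ALL, was -0.73 ± 0.12 on the log2 scale. For HG + FFA, the same difference was -0.36 ± 0.12 and did not pass (unadjusted p = 0.00482, edgeR FDR = 1, 0% of 18339 genes called). For AII + NA it was -0.03 ± 0.11 (edgeR FDR = 0.937).

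**Figure D2:**
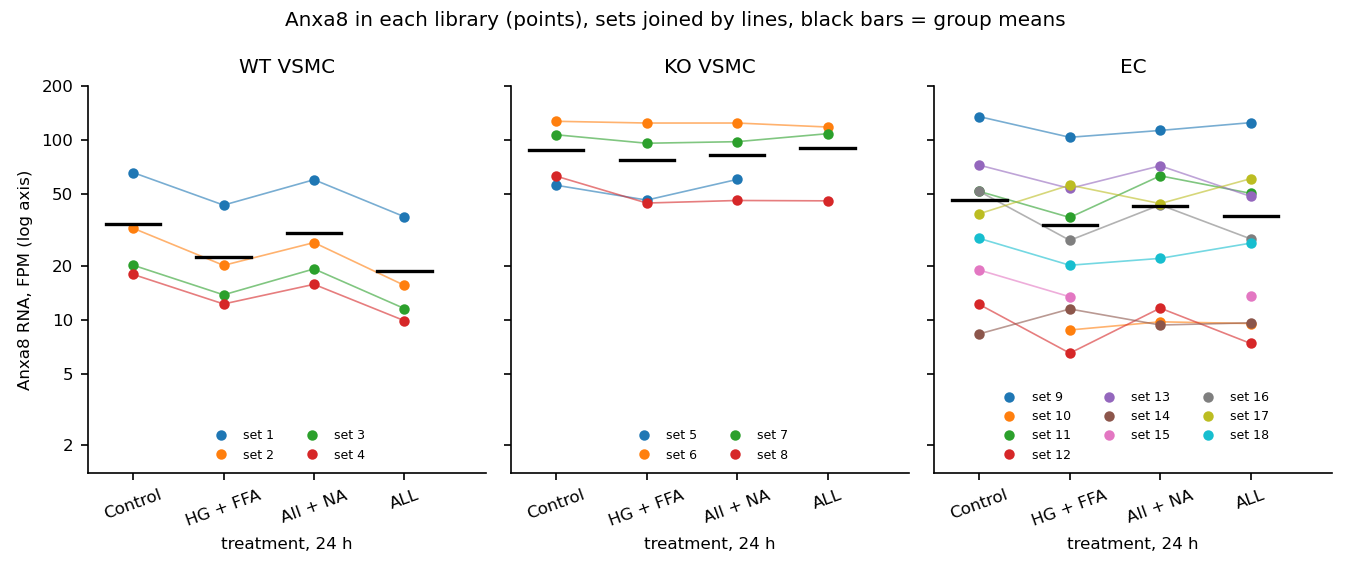
Anxa8 RNA (FPM, log axis) in every library under the 4 treatments, for WT VSMC, KO VSMC and EC. Lines join the libraries of a set and black bars are group means, where the KO VSMC mean under ALL lacks set 5. All 4 WT VSMC lines fall from Control to HG + FFA and lie lowest under ALL, whereas KO VSMC lines run between 44.6 and 127 FPM and that of set 8 falls from 62.9 FPM to 44.6 to 46.1 FPM with each treatment, and EC lines run between 6.50 and 135 FPM without a common course.

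Among the other members, Anxa1 and Anxa3 rose in WT VSMC under ALL stressors. Anxa1 had 1343, 607, 1107 and 471 FPM under Control and 1406, 966, 1660 and 1030 FPM under ALL in sets 1 to 4. All 4 sets were higher, by log2 ratios of 0.07 to 1.13, and the groups overlap. The log2FC was 0.62 ± 0.18 (edgeR FDR = 0.0444). Anxa3 had 185, 94.2, 112 and 104 FPM under Control and 255, 145, 126 and 174 FPM under ALL. It too was higher in 4 of 4 sets, with a log2FC of 0.50 ± 0.15 (edgeR FDR = 0.0479). In this comparison 7.45% of 16905 genes were called, against 2 of the 8 members that were tested. Both calls were close to the threshold. That of Anxa1 was lost without set 2, 3 or 4 (edgeR FDR of 0.0783 to 0.218) and in DESeq2 (FDR = 0.0677), and that of Anxa3 without set 1, 2 or 4 (edgeR FDR of 0.0828 to 0.140). Markers of cell types moved in the same libraries. Of the smooth muscle markers 2 of 8 were called higher (median log2FC 0.73), and of the endothelial markers 2 of 9 were called lower (median log2FC -0.84). The endothelial markers were low in WT VSMC, where their sum had set means from 1.68 FPM in set 3 to 56.7 FPM in set 2. The part of these cell type markers in the result was not tested.

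None of the other 6 members passed in WT VSMC under ALL. Anxa7 had a log2FC of -0.19 ± 0.07 (edgeR FDR = 0.109) and was lower in 4 of 4 sets. Anxa2, Anxa4, Anxa5, Anxa6 and Anxa11 lay between -0.11 and 0.11. Under HG + FFA, 7 of the 9 members had a log2FC below 0 and the median was -0.18, against -0.0058 over all genes tested. Of these, Anxa2 (-0.29 ± 0.09, edgeR FDR = 0.222), Anxa7 (-0.23 ± 0.07, edgeR FDR = 0.161), Anxa11 (-0.18 ± 0.07, edgeR FDR = 0.296), Anxa5 (-0.18 ± 0.08, edgeR FDR = 0.449) and Anxa4 (-0.16 ± 0.06, edgeR FDR = 0.335) were lower in 4 of 4 sets. DESeq2 called Anxa7 there in addition to Anxa8, among 460 of 33583 genes called.

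Under AII + NA no member passed edgeR's test in WT VSMC, where 0.0532% of 16905 genes did. Anxa1, Anxa3 and Anxa8 had an unadjusted p under 0.05, and DESeq2 called 0. Anxa1 was at 1657, 1023, 1319 and 1010 FPM, higher than Control in 4 of 4 sets, with a log2FC of 0.62 ± 0.18 (edgeR FDR = 0.234) equal in size to that under ALL. Anxa3 had a log2FC of 0.35 ± 0.15 (edgeR FDR = 0.458). Neither differed from additivity under ALL, with departures of -0.11 ± 0.25 and 0.05 ± 0.21. For all 8 members tested the departure lay between -0.11 and 0.14, none with an unadjusted p under 0.05. In the whole table edgeR called 0% of 16905 genes for additivity, where 290 had an unadjusted p under 0.05 and DESeq2 called 89.

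In KO VSMC no member was called in any comparison with Control, where 0.439% of 17538 genes were called under HG + FFA, 0% under AII + NA and 0.399% under ALL. For AII + NA, edgeR's 0 compares with 1711 genes at an unadjusted p under 0.05 and 225 called by DESeq2. The members at an unadjusted p under 0.05 were Anxa2, Anxa7 and Anxa8 under HG + FFA, Anxa2 under AII + NA and Anxa1, Anxa3 and Anxa11 under ALL. DESeq2 called Anxa7 under HG + FFA, where it called 511 of 32381 genes, and Anxa1 under ALL, where it called 469. Anxa1 was at 938, 1735 and 837 FPM under Control and at 1082, 2515 and 1007 FPM under ALL in sets 6 to 8, a log2FC of 0.35 ± 0.11 (edgeR FDR = 0.229). Anxa3 was at 361, 281 and 148 FPM under Control and at 378, 507 and 206 FPM under ALL in the same sets and did not pass (log2FC 0.45 ± 0.16, edgeR FDR = 0.329). Set 7 was the highest of the 3 under ALL for both genes.

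The effects of stressors on the other 8 members did not differ between the genotypes in the test of the difference itself. Under ALL, 0.0109% of 18339 genes were called by edgeR and 215 genes by DESeq2, and the 8 differences lay between -0.12 and 0.27. Under HG + FFA and under AII + NA, 0% were called by edgeR, with 564 and 2182 genes at an unadjusted p under 0.05 and with 189 and 201 called by DESeq2. The largest for AII + NA were Anxa1 with 0.56 ± 0.21 (unadjusted p = 0.0141, edgeR FDR = 0.395) and Anxa2 with 0.35 ± 0.13 (unadjusted p = 0.0135, edgeR FDR = 0.395), both more positive in WT VSMC. For Anxa3 under ALL, the difference of 0.06 had a 95% interval from -0.40 to 0.51, which leaves room for effects of unequal size.

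**Figure D3:**
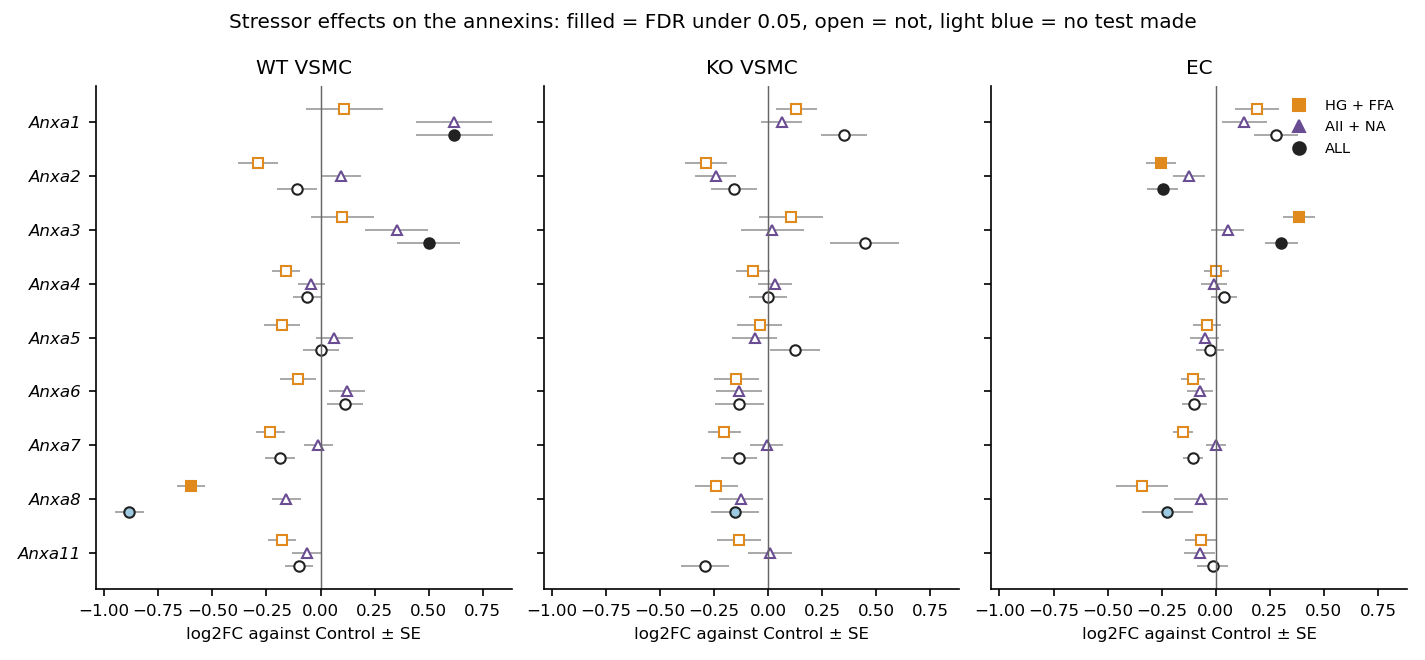
The log2FC against Control (x axis, bars are SE) of the 9 annexins under HG + FFA (squares), AII + NA (triangles) and ALL (circles) in WT VSMC, KO VSMC and EC. Filled symbols passed an edgeR FDR of 0.05, open ones did not, and light blue marks the values of Anxa8 under ALL that were not tested. Anxa8 lies farthest to the left in WT VSMC, with -0.60 under HG + FFA and -0.88 under ALL, and Anxa1 and Anxa3 farthest to the right.

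In EC, Anxa3 rose and Anxa2 fell with HG + FFA and with ALL, and none of the members passed with AII + NA. Both comparisons use the same Control libraries. Anxa3 had 94.6, 257 and 306 FPM (lowest, median and highest library) under Control, 132, 283 and 498 FPM under HG + FFA and 131, 269 and 461 FPM under ALL. It was higher in 8 of 9 sets with either treatment, and the groups overlap. The log2FC was 0.38 ± 0.08 under HG + FFA (edgeR FDR = 0.00245) and 0.30 ± 0.08 under ALL (edgeR FDR = 0.0194). Anxa2 had 349, 800 and 945 FPM under Control, 326, 684 and 774 FPM under HG + FFA and 366, 710 and 831 FPM under ALL. It was lower in 9 of 9 sets under HG + FFA (log2FC -0.25 ± 0.07, edgeR FDR = 0.0387) and in 7 of 9 under ALL (log2FC -0.25 ± 0.07, edgeR FDR = 0.0486). The background was 3.53% of 17148 genes for HG + FFA and 3.18% for ALL.

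Most of these calls were lost in other fits. Sets 17 and 18 share an animal, and with the animal as block Anxa3 under HG + FFA passed (edgeR FDR = 0.0105, 0.916% of 17148 genes called), whereas Anxa2 under HG + FFA (edgeR FDR = 0.107) and, under ALL (0.781% called), Anxa3 (edgeR FDR = 0.0623) and Anxa2 (edgeR FDR = 0.130) did not. With complete sets only, again Anxa3 under HG + FFA was the 1 call (edgeR FDR = 0.0156, with 1.83% of 16970 genes called under HG + FFA and 1.35% under ALL), and with only the groups compared there was none (for Anxa3 under HG + FFA, edgeR FDR = 0.0634).

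Without EC sets 9, 11 and 13, Anxa3 under HG + FFA still passed (log2FC 0.41, edgeR FDR = 0.0182, 2.58% of 17464 genes called). Under ALL its log2FC stayed at 0.30 but no longer passed (edgeR FDR = 0.0983, 1.91% called), and Anxa2 was at -0.30 under HG + FFA (edgeR FDR = 0.0672) and at -0.25 under ALL (edgeR FDR = 0.156). With AII + NA, edgeR called 0% of 17148 genes (1143 at an unadjusted p under 0.05, 90 called by DESeq2), and the members lay between -0.12 and 0.13. Anxa7 was lower in 9 of 9 EC sets under HG + FFA but did not pass (-0.15 ± 0.05, edgeR FDR = 0.0554), whereas DESeq2 called it, among 998 of 36539 genes. Anxa8 in EC had a log2FC of -0.34 ± 0.12 under HG + FFA (edgeR FDR = 0.115), lower in 7 of 9 sets. Its value under ALL, not tested, was -0.22 ± 0.12, with set ratios from 0.55 to 1.57.

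The difference of a stressor effect between EC and WT VSMC passed for no member. Of 19362 genes, 0% were called for HG + FFA (397 at an unadjusted p under 0.05, 77 called by DESeq2), 0.0465% for AII + NA and 0.511% for ALL. For HG + FFA, Anxa8 differed by 0.25 ± 0.19 (EC minus WT VSMC, edgeR FDR = 1) and Anxa3 by 0.28 ± 0.16 (edgeR FDR = 1). For AII + NA, Anxa1 differed by -0.48 ± 0.20 (unadjusted p = 0.0225, edgeR FDR = 0.690). Under ALL the difference of Anxa8, as a description, was 0.67 ± 0.19.

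The levels of Anxa8, Anxa4 and Anxa3 in EC differed between sets with little and with more Pecam1. In sets 13, 9 and 11, which had the least Pecam1, Anxa8 had set means of 61.7, 119 and 50.6 FPM. In sets 16 and 17, with Pecam1 at 260 and 263 FPM, Anxa8 was at 37.8 and 50.1 FPM, and in the 5 sets with Pecam1 above 500 FPM it was at 9.33 to 24.3 FPM. Anxa4 had 115 to 137 FPM in the 3 sets low in Pecam1 and 61.7 to 93.8 FPM in the other 7, and Anxa3 had 126 to 191 FPM against 207 to 423 FPM. These ranges did not overlap, although for Anxa8 they nearly touched (50.6 and 50.1 FPM). How many of all genes separate between these groups of sets was not determined. The separation is therefore not shown to be particular to Anxa8, Anxa4 and Anxa3. The ranges of the other 6 members overlapped between these groups of sets, as for Anxa1 with 570 to 1387 FPM against 249 to 1703 FPM and for Anxa5 with 373 to 493 FPM against 308 to 522 FPM. No test was made, because the sets were sorted by measured RNA, and the part of other cells in these levels was not tested.

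**Figure D4:**
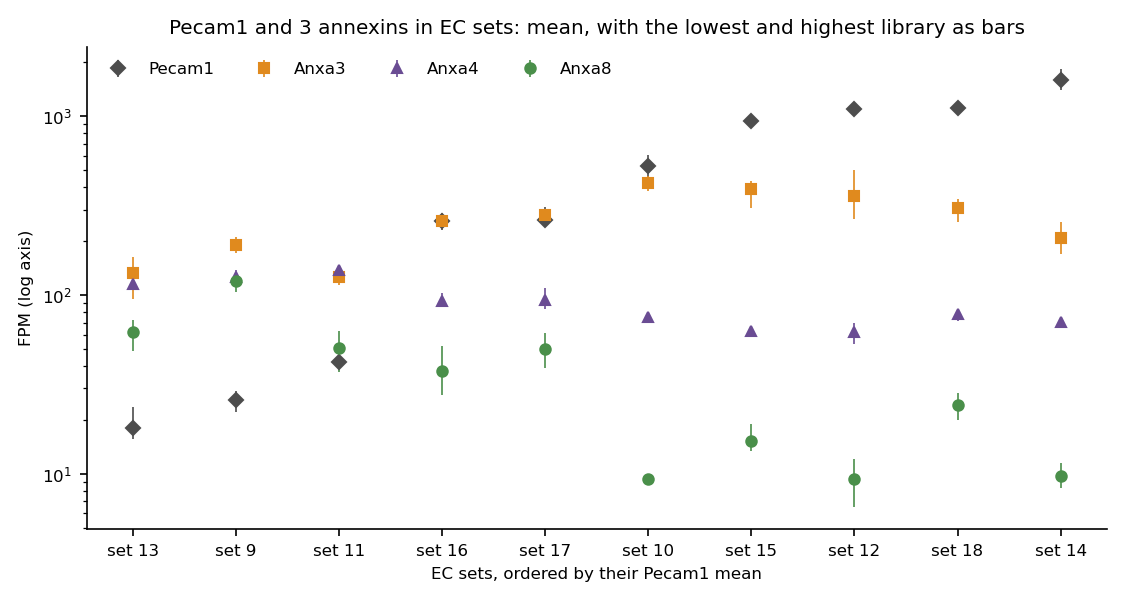
Set means (FPM, log axis) of the endothelial marker Pecam1 and of Anxa3, Anxa4 and Anxa8 in the 10 EC sets, ordered by Pecam1, with bars from the lowest to the highest library. Sets 13, 9 and 11 at the left have little Pecam1 (18.1 to 42.4 FPM), the highest Anxa8 and Anxa4, and less Anxa3 than the other sets.

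Without stressors, all 9 members had a higher mean in KO VSMC than in WT VSMC, but none passed edgeR's test, in which 0.00622% of 16089 genes were called, a single gene, Serpine2, that was higher in KO VSMC. The median log2FC of the members was 0.40, against -0.0026 over all genes tested. Anxa8 had the largest value, 1.36 ± 0.44 (unadjusted p = 0.0126, edgeR FDR = 0.372), followed by Anxa3 with 0.88 ± 0.35 (edgeR FDR = 0.403), Anxa2 with 0.65 ± 0.22 (edgeR FDR = 0.386) and Anxa6 with 0.63 ± 0.19 (edgeR FDR = 0.344). The test of Anxa8 is not independent of its choice, as these Control libraries enter the difference under ALL by which the gene was chosen. DESeq2 called 0 members, among 367 of 30797 genes called. Without KO VSMC set 5, which kept some Egfr, edgeR called 397 of 16492 genes and again 0 members. The small number of genes called with all sets therefore depended on this set and on the tool. Averaged over the treatments of a set, Anxa2 (506 to 723 FPM in WT VSMC, 776 to 1155 FPM in KO VSMC) and Anxa6 (284 to 341 FPM and 406 to 515 FPM) did not overlap between the genotypes. Permuting the sets exactly gave a two-sided, unadjusted p = 0.0286 for both of these genes among 8 members tested, and 4 sets against 4 allow none smaller. The share of all genes whose sets separate in this way was not determined. In edgeR's test under Control, 1958 of 16089 genes had an unadjusted p under 0.05, so that the separation is not shown to be particular to these members. Anxa8 overlapped (13.9 to 51.7 FPM against 49.9 to 124 FPM) and was not tested here, since these means include the ALL libraries. Other markers moved with the genotype. The sum of 9 mesothelial or epithelial markers was 3.25 to 8.90 FPM in WT VSMC libraries, 6.84 to 8.39 FPM in KO VSMC set 5 and 22.4 to 112 FPM in sets 6 to 8, where 5 or 6 of the 9 genes stayed under 1 FPM, and the 5 fibroblast markers had a median log2FC of -1.77. The 8 smooth muscle markers had a median log2FC of 1.055 (-0.07 to 3.35). The 6 endothelial markers tested had a median of -1.63 and the 4 leukocyte markers tested one of -0.71. All 9 endothelial markers summed to at most 69.8 FPM in a WT VSMC library and 23.4 FPM in a KO VSMC library. No marker of these lists was called. Their part in the annexin levels was not tested.

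Between EC and WT VSMC under Control, 12% of 17115 genes were called and no member was. Anxa3 was at 0.81 ± 0.32 (edgeR FDR = 0.100) and Anxa5 at -0.44 ± 0.17 (edgeR FDR = 0.104), and these were the only 2 members at an unadjusted p under 0.05. DESeq2 called 0. Averaged over treatments and compared by animal, Anxa5 was lower in EC (log2 difference -0.39, two-sided exact permutation p = 0.00839, unadjusted over the 8 members tested, 9 animals against 4), although the ranges overlap. These animals are not all independent, since 2 of them gave both kinds of cells. Without the EC of those 2 animals the difference of Anxa5 was -0.41 (exact permutation p = 0.0121, 7 animals against 4). Without the 3 EC sets low in Pecam1, Anxa3 was called (1 of 9 members, against 28.5% of 16827 genes), and Anxa8 turned from 0.47 ± 0.63 to -0.34.

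The genes that act with annexins were described by a list of 28 partners, of which 24 to 26 were tested in each comparison. Fpr2 and Plg were too low to be tested. In WT VSMC under ALL, 3 of 24 partners passed, against 7.45% of all genes tested. Dysf, the ferlin dysferlin of membrane repair, rose by a log2FC of 0.83 ± 0.16 (edgeR FDR = 0.00599) and its relative Myof by 0.40 ± 0.11 (edgeR FDR = 0.0288), each in 4 of 4 sets. Plat, tissue plasminogen activator, fell by 0.43 on the log2 scale (SE 0.11, edgeR FDR = 0.0211) in 4 of 4 sets. Over the 24 partners tested the median was 0.0038, against -0.010 over all genes tested. S100a10, the partner of Anxa2, was at -0.23 ± 0.10 (edgeR FDR = 0.213), and Cd63 at -0.02 ± 0.12.

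No partner passed in KO VSMC, where Dysf was nevertheless higher in 4 of 4 sets under HG + FFA (log2FC 0.56 ± 0.12, edgeR FDR = 0.0698) and in 3 of 3 under ALL (0.53 ± 0.14, edgeR FDR = 0.131). In EC, 1 of 24 partners passed under HG + FFA (3.53% of all genes tested) and 1 under ALL (3.18%). Dysf rose under HG + FFA in 9 of 9 sets (0.33 ± 0.08, edgeR FDR = 0.0171). Under ALL, Plau, the urokinase that also activates plasminogen, fell by 0.44 on the log2 scale in 9 of 9 EC sets (SE 0.10, edgeR FDR = 0.00796), and Dysf was at 0.28 ± 0.08 (edgeR FDR = 0.0517). Some of these EC sets share an animal, and the partner calls are given only with the set as block. With the animal as block, edgeR called 157 instead of 605 of 17148 genes under HG + FFA. For ALL it called 134 instead of 546. No partner passed for a difference between genotypes or between EC and WT VSMC in the effect of a stressor. Between EC and WT VSMC under Control, 4 of 24 partners passed, against 12% of all genes tested. This comparison was unpaired, so that EC sets of the same animal counted as independent, and the partners are given for this fit only. EC had more S100a4 (log2FC 2.75 ± 0.76, edgeR FDR = 0.0328) and Myof (1.25 ± 0.19, edgeR FDR = 0.00219) than WT VSMC, and less Capn1 (-0.69 ± 0.17, edgeR FDR = 0.0231) and Chmp4b (-0.62 ± 0.19, edgeR FDR = 0.0448). The other annexins of the annotation hardly occurred. Anxa9 had set means of 0.98 to 6.05 FPM, and Anxa10 and Anxa13 had at most 8 and 7 counts in any library.

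**Figure D5:**
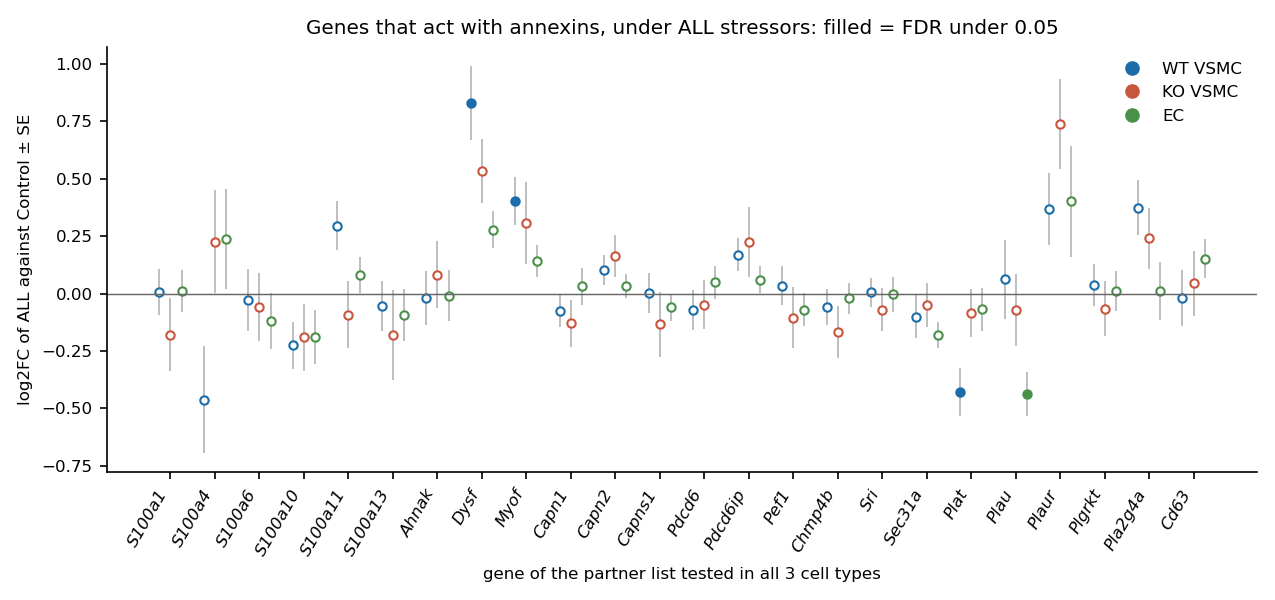
The log2FC of ALL against Control (y axis, bars are SE) for the partner genes tested in WT VSMC, KO VSMC and EC, with filled symbols for an edgeR FDR under 0.05. Dysf and Myof lie above 0 in all 3 kinds of cells and passed in WT VSMC, where Plat lies at -0.43, and Plau at -0.44 is the filled symbol of EC.

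The members moved together in part. Over the 31 VSMC libraries, after the mean of each set was subtracted from log2 FPM, the pairs with the highest Pearson r were Anxa1 with Anxa3 (0.83), Anxa2 with Anxa6 (0.77), Anxa7 with Anxa8 (0.73) and Anxa2 with Anxa7 (0.72). The lowest were Anxa3 with Anxa11 (-0.53) and Anxa1 with Anxa11 (-0.34). These libraries share sets and treatments, so that the values are a description. Among 12159 genes with at least 3 FPM, the 5 whose course was most like that of Anxa8 were Rab7b, a small GTPase of late endosomes (r = 0.89), the cytokine Il16 (0.87), Ttc9 (0.87), Sqor, which oxidizes sulfide in mitochondria (0.87), and Cd55, which limits complement (0.87). Under ALL, the mean log2 ratio to Control in WT VSMC was -1.06 ± 0.27 for Cd55, -0.78 ± 0.18 for Il16, -0.50 ± 0.16 for Ttc9, -0.44 ± 0.17 for Sqor and -0.43 ± 0.13 for Rab7b (SD, n = 4 sets). In KO VSMC the same genes were at -0.29 ± 0.20, -0.36 ± 0.21, -0.32 ± 0.14, -0.18 ± 0.12 and -0.06 ± 0.18 in that order (SD, n = 3 sets). The 5 genes were chosen by likeness to Anxa8 over these same libraries, those under ALL included, so that a larger fall in WT VSMC than in KO VSMC is built into the choice. Of the other members, Anxa7 was nearest to Anxa8, in place 79.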

How the data were processed

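Poly(A) RNA was sequenced in 69 libraries of cultured cells. The values are raw counts per gene as deposited by the authors, who aligned paired-end reads with HISAT2 2.1.0 to mm39 and counted them over exons with featureCounts. The strand setting is not given in the sources used here. Multimapping reads were counted.

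Counts were tested in R 4.3.3 with edgeR 4.0.16 (quasi-likelihood test, TMM, filter on low counts), with the set as a block in comparisons of treatments. Genes were called at a Benjamini-Hochberg FDR under 0.05 over all genes tested. Alternatives were DESeq2 1.42.0, edgeR with DESeq2's scaling, omission of the filter or of the block, the animal as block, leaving out each VSMC set, complete sets, only the compared groups and the call rule of the study. Leaving out the EC sets with Pecam1 under 100 FPM in every library, or the EC of animals that also gave WT VSMC, was chosen after seeing the data. DESeq2's counts of genes for differences between cell types or genotypes shifted slightly with the linear algebra kernel, which was therefore fixed. Tests were tried on simulated data first. Set-wise log2 ratios used a pseudocount of 0.1 FPM, and FPKM used the union of exons. Intervals are 95%.

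The pairing comes from the design, as a set is 1 animal and passage. After subtraction of group means, libraries of the same set correlated with r of 0.52 to 0.89 in WT VSMC, 0.62 to 0.88 in KO VSMC and 0.61 to 0.93 in EC. No libraries of a group were alike within sampling noise, the smallest chi-square per gene being 54.7. The 10 EC sets stem from 9 animals, since sets 17 and 18 share one. EC sets 9 and 10 share animals with WT VSMC sets and EC sets 15 and 16 with KO VSMC sets.

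The members, lists and tests were chosen with earlier results of these data known. Genes were named by rule: the members, the other annexins, the list of partners, Egfr, and the 5 genes most like Anxa8 by Pearson r among those with at least 3 FPM. Aldh3a1 and Serpine2 were named after their values were seen.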

Additional observations from a re-analysis of the deposited data

Results flagged for a closer look

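In 8 of 99 groups of 4 to 10 libraries, a member had a library far from the others by Dixon's criterion, which chance gives in about 1 in 20 groups. Of these, 5 belonged to EC set 9, which was also low in Pecam1 (25.7 FPM). Anxa8 was highest there, with 135 FPM under Control (next library 72.5 FPM), 104 FPM under HG + FFA (next 56.1 FPM) and 125 FPM under ALL (next 60.9 FPM). Anxa2 was lowest there, with 349 FPM under Control (next 770 FPM) and 352 FPM under AII + NA (next 620 FPM). Anxa7 had its highest EC value under ALL in set 14, 344 FPM (next 258 FPM). Under Control, Anxa5 was lowest in WT VSMC set 3 with 485 FPM (next 581 FPM) and in KO VSMC set 5 with 563 FPM (next 678 FPM). KO VSMC set 5 also kept some Egfr (36.5 FPM). The effect of ALL on Anxa8 differed between WT VSMC and KO VSMC by -0.73 on the log2 scale, the value for which the family was chosen.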

How the results depend on the processing

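Of 329 values of single members, 294 kept their direction and their side of the threshold under the alternatives, and 28 lost a call. Values that did not pass in the main fit count as kept where they again did not pass. The number of members called stayed within 1.5 times in 157 of 190 cases. Most of these cases belong to comparisons with 0 members called in the main fit, and say little about the calls that were made. Those calls were often lost, as given below. Without the replicate block, which the design gives, 0 members were called in WT VSMC under HG + FFA (1 with the block) and under ALL (2 with the block) and in EC under HG + FFA and ALL (2 each with the block). The study's call rule left 0 in these 4 comparisons, since each of these changes was under its size limit of 0.64 on the log2 scale. Anxa8 under ALL, which was past it, is not counted, as it was not tested. DESeq2 called 2 members in WT VSMC under HG + FFA (460 of 33583 genes called), and 1 each in WT VSMC under ALL (1598 of 33583), KO VSMC under HG + FFA (Anxa7, 511 of 32381) and KO VSMC under ALL (Anxa1, 469 of 32381). Its size factors in edgeR left 1 in EC under ALL (529 of 17148). Without a count filter, 2 members were called in WT VSMC under AII + NA, 1 in KO VSMC under ALL (Anxa3) and 1 for WT VSMC minus KO VSMC under AII + NA (Anxa1). In the same order, 625 of 33583, 464 of 32381 and 350 of 35709 genes were called in these fits. With the filter it was 9 of 16905, 70 of 17538 and 0 of 18339, so that calls rose over the whole table. Leaving out 1 set gave 0 to 1 members in WT VSMC under ALL and 0 to 1 in KO VSMC under HG + FFA (Anxa2 without set 5). Leaving out 1 WT VSMC set left 494 to 970 genes called under ALL, against 1259 of 16905 with all sets. Without KO VSMC set 5, 1442 of 16821 genes were called under HG + FFA, against 77 of 17538 with it. In EC, HG + FFA kept 1 member (Anxa3) with the animal as block, with complete sets or without the sets low in Pecam1, and 0 with only the groups compared, while ALL kept 0 in each. Exact permutation tests of means over all treatments gave an unadjusted p under 0.05 for 2 members between the genotypes and for 1 between EC and WT VSMC (Anxa5, also without the EC of animals that gave WT VSMC, which was chosen after seeing the data). They are given for members only, without the share over all genes. Under Control, edgeR called 1 member (Anxa3) between EC and WT VSMC without the sets low in Pecam1. Anxa8 changed sign there (-0.34), and in WT VSMC minus KO VSMC under AII + NA, with -0.13 to 0.054 when 1 set was left out (positive without WT VSMC set 2 or 4 or KO VSMC set 5 or 6). Except where a value shows it, the cause was not tested. With 159 or more counts in every library, depth did not limit Anxa8.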
